A study of Mus musculus with 8 samples.

Results

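The chaperonin CCT, also called TRiC, is the ring-shaped ATP-driven folding machine of the eukaryotic cytosol, and the genes described here encode its subunits. Each ring holds 8 different but related subunits, and each of them has its own gene: Tcp1 (subunit alpha), Cct2 (beta), Cct3 (gamma), Cct4 (delta), Cct5 (epsilon), Cct6a (zeta), Cct7 (eta) and Cct8 (theta). Prefoldin hands actin and tubulin chains to CCT, which closes over them and lets them fold, so growing cells need the complex for their cytoskeleton and their cell cycle regulators. The members are these 8 genes by name, of 21883 protein-coding genes on the numbered chromosomes, X and Y, with gene spans from RefSeq (GRCm38.p6, the mm10 build). They were selected on measured values, namely the position, length and tags of their peaks and their covered share in both lists, so every value below is a description and none is a test.

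The mark measured was H3K36me3, trimethylated lysine 36 of histone H3, which Setd2 places on chromatin behind elongating RNA polymerase II and which therefore lies over the bodies of transcribed genes. Its map comes from ChIP-seq of mouse embryonic stem cells, which carry a doxycycline-inducible knockdown of Setd2. All cells grew without feeder cells, as spheres, with PD0325901 (1 µM) and CHIR99021 (3 µM), which inhibit MEK and GSK3, and with 1000 U/ml of the cytokine LIF. Control cells (Dox -, genotype control) received no doxycycline, and knockdown cells (Dox +, genotype Setd2 knockdown) received 1 µg/ml for 4 days. The 8 libraries are H3K36me3 ChIP and input from each condition, 2 replicates each. The authors' names for the peak lists contain shCont for control and shSetD2 for knockdown. The labels give no hairpin sequence or clone, and do not say whether control cells carried a hairpin of their own or whether replicates were separate cultures.

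The authors merged the replicates before they called peaks, so each condition has 1 peak list, no spread between replicates and no test against the other. The control list held 30634 peaks from 36244210 ChIP tags kept after removal of duplicates, and the knockdown list 3040 peaks from 29416169, with 35134297 and 33403964 input tags kept. All intervals below cover counting error only. As a check of the cell type, 8 of 8 pluripotency genes such as Nanog and Klf2 were covered by control peaks, over 44.9% to 98.3% of their length, and 0 of 9 marker genes of endoderm, mesoderm, neuroectoderm, trophoblast and fibroblasts had a covered base.

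Most CCT genes were broadly marked in control cells and kept short marked stretches after knockdown. A gene was counted as marked when at least 1 bp of its span lay under a peak. In control 7 of the 8 CCT genes were marked, where 44.8% of all protein-coding genes were. In knockdown 6 of 8 were marked, against 5.17% of all. A peak in both lists was found for 5 genes (4.68% of all genes), Tcp1, Cct2, Cct4, Cct5 and Cct7. Of all genes with a control peak, 10.4% also had one in knockdown, compared with 5 of the 7 CCT genes. Cct6a and Cct8 had a control peak alone, and Cct3 had a knockdown peak alone, a pattern shown by 0.489% of protein-coding genes. The rule that chose the genes used these lists, so nothing is read from the counts. They also depend on the filter: with an FDR of 1% or less only 1 CCT gene, Cct3, kept a knockdown peak. That peak had the lowest score of the knockdown peaks at members (55.8, FDR 0.96%). The highest-scoring one, at Cct2 (161.9, FDR 1.58%), was dropped, so this filter did not follow the score. With a caller score of at least 100 only 2 genes kept a knockdown peak, Cct2 and Cct3.

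Sequences just before the starts of 3 members are shown because they carry no peak in either list, which sets off where the mark begins. Cct2 had the widest knockdown coverage, Cct3 had knockdown peaks alone, and Cct8 had a control peak alone. Each sequence runs 5′ to 3′ on the strand of its gene up to the base before the start, as RefSeq gives it for GRCm38.p6, and bases inside another annotated gene are left out. Capitals mark GGGCGG or its complement CCGCCC (the GC box) and CCAAT or its complement ATTGG (the CCAAT box).
Cct2, chr10:117063853-117064102, minus strand: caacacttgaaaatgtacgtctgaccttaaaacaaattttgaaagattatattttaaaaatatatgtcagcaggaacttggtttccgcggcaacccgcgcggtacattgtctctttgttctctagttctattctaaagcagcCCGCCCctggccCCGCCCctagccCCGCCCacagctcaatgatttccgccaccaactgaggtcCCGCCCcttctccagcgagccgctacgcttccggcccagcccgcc
Cct3, chr3:88297000-88297134, plus strand: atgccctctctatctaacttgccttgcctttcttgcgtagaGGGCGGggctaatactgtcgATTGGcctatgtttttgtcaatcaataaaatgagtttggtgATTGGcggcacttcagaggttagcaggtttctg
Cct8, chr16:87495870-87496072, minus strand: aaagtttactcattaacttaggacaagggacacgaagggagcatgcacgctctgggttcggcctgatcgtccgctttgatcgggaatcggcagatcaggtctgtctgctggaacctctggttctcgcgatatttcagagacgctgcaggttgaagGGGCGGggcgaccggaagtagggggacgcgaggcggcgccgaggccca

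Start sequences were found for 7 of the 8 genes, all but Cct4. In the 250 bases before the start, on both strands, GGGCGG occurred in 7 of 7, compared with 36.9% of 10582 protein-coding genes with such an entry. CCAAT occurred in 4 of 7 (Tcp1, Cct3, Cct6a and Cct7), compared with 37.4%. Unlike in the sequences shown, bases inside another annotated gene were counted here. For Tcp1, Cct6a and Cct7 all 250 bases lie inside a neighbouring gene, Mrpl18, Psph and Pradc1 in that order. GAANNTTC, the core of the heat shock element, occurred in 0 of 7, compared with 7.24%. These are letter matches and say nothing of a bound factor. None of the 7 windows of 300 bases around the start (250 before, 50 after) had a base under a control or a knockdown peak. For the 6 of these genes with a control peak, 0 windows were touched by one, and of 4108 such windows of all genes with a control peak 3.68% were. Peak positions were used in the selection, so nothing is read from this count.

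**Figure D1:**
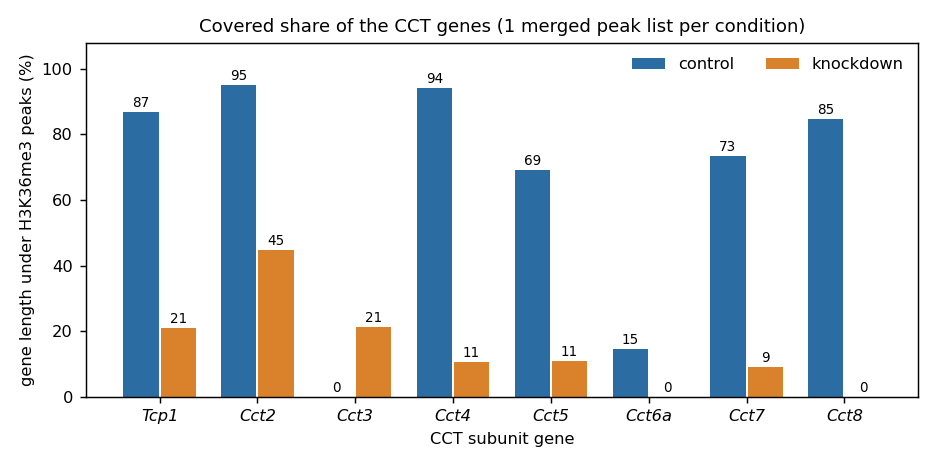
Bars give the percent of each CCT gene's RefSeq span that lies under H3K36me3 peaks in the merged control list (blue) and the merged knockdown list (orange); there are no replicates and no error bars. Cct2 was covered over 95.2% and 44.8%, and Cct3 over 0% and 21.4%.

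Cct2 and Tcp1 had the widest knockdown coverage among the genes with peaks in both lists. Cct2 spans 12856 bp of chromosome 10, from 117050997 to 117063852, and 95.2% of it lay under 1 control peak. In knockdown 3 separate peaks covered 44.8%, so that 47.0% of its control-covered sequence in bp was still covered. Tcp1, which gave the complex its older name, spans 8739 bp of chromosome 17 from 12916329 to 12925067. It was covered over 86.8% in control, by 1 peak, and over 20.9% in knockdown, also by 1 peak.

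Cct4, Cct5 and Cct7 kept less. For Cct4 (chromosome 11, 22990593 to 23003336) the covered share was 94.2% in control and 10.5% after knockdown. Cct5 (chromosome 15, 31590800 to 31601846) was covered over 69.3% and 11.03%. Cct7 (chromosome 6, 85451505 to 85468477) had 2 control peaks over 73.4% of its length and 1 knockdown peak over 8.97%. In these 3 genes 11.2% to 15.9% of the control-covered length in bp stayed covered. Without replicates, the order of these 3 genes cannot be told from their spread.

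Cct8 and Cct6a had no knockdown peak. Cct8 (chromosome 16, 87483325 to 87495869) was covered over 84.7% in control, a share close to that of Tcp1, but no stretch of it was called after knockdown. Cct6a, whose close relative Cct6b works in the testis, spans 59088 bp of chromosome 5 from 129787356 to 129846443 in the RefSeq table, far longer than the 8.74 to 24.6 kb of the other members. Its control peaks cover 14.7% of that span. They lie at its 2 ends, one from 806 to 7594 bp behind the start and the other from 57209 bp onward. The table gives no exons, and the span itself is in doubt, so the covered share, the end and the 3′ peak of Cct6a rest on this span as given.

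Cct3 stood apart from the other members. It spans 24632 bp of chromosome 3, from 88297135 to 88321766, and had 0 bp under control peaks. The next control peaks lay 56.2 kb before its start and 4.26 kb behind its end, the second over Glmp. In knockdown 3 peaks of 1663, 2326 and 1276 bp covered 21.4% of the gene, and they held 61, 87 and 43 tags. Their caller scores were 77.0, 110.9 and 55.8, and the authors' folds over background 4.04, 4.08 and 4.32. These values are within the range of the knockdown peaks at the other CCT genes except for the lowest score. An absent control peak means that none was called there, since the deposited lists hold no tag counts outside peaks.

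**Figure D2:**
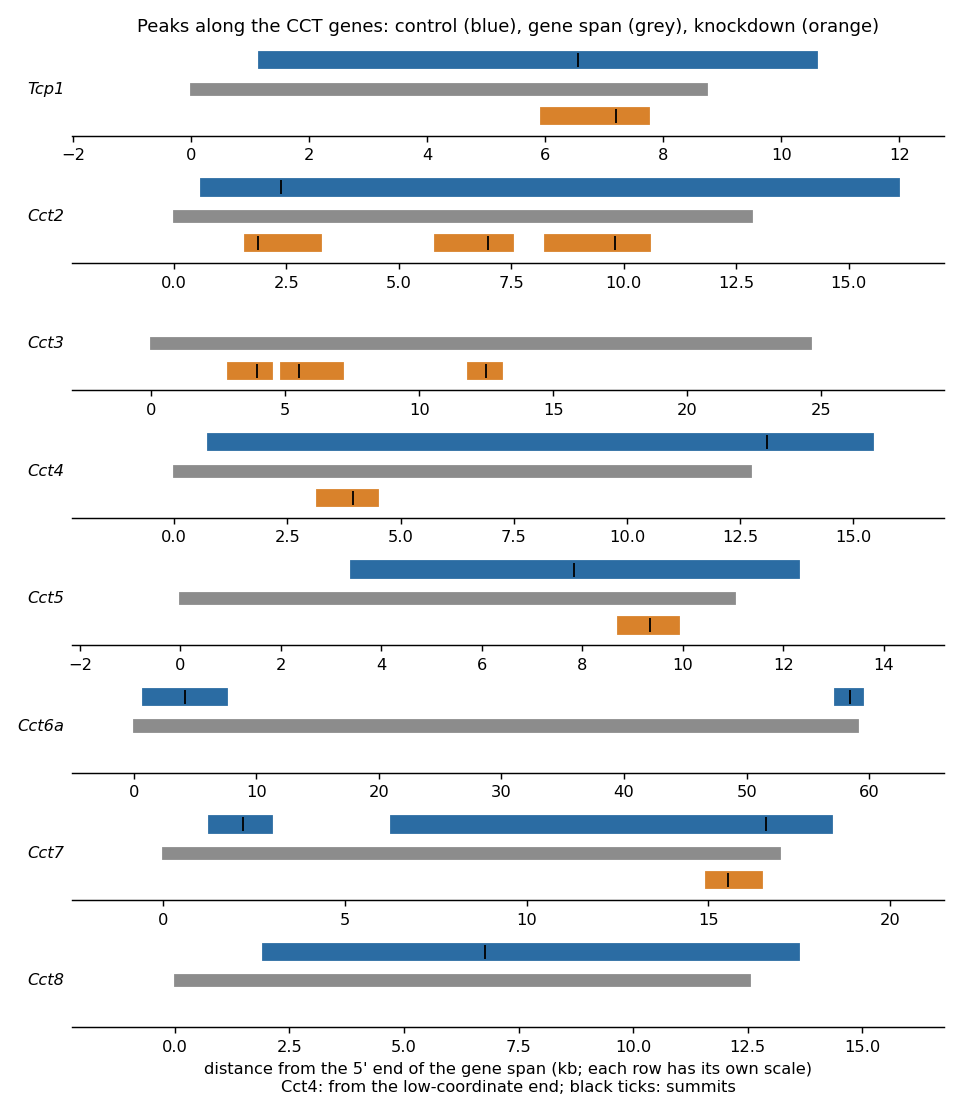
Each row shows 1 gene, with its span in grey, control peaks in blue above it, knockdown peaks in orange below it and summits as black ticks; the x axis is the distance from the start in kb, on a scale of its own in each row. Control peaks begin 613 to 3396 bp behind the start in the 6 genes with a known strand and a control peak, and run past the gene's end.

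Within the genes the mark began behind the start and ran past the end. In the 6 marked members whose strand is in the table, the first covered base lay 613 bp (Cct2), 806 bp (Cct6a), 1157 bp (Tcp1), 1251 bp (Cct7), 1914 bp (Cct8) and 3396 bp (Cct5) behind the start. Over 7144 marked genes of 5 kb or more with a known strand the median was 5346.5 bp. The outermost control peak ran past the end of the gene in 6 of 6, by 400 bp (Cct6a) to 3272 bp (Cct2), where 47.5% of the 7144 genes showed this. Without Cct6a, whose end is in doubt, it was 5 of 5, by 1083 bp or more. When each gene was cut into 10 equal parts, the mean control-covered share of these 6 members was 27.5% in the first part and 88.6% in the last. Without Cct6a, which alone had 86.4% in its first part, the mean of the other 5 was 15.7% in the first part and 100% in the last. For the 7144 genes these shares were 8.22% and 53.9%. Members were chosen on the position and length of their peaks and on their covered share. The 7144 genes needed only a known strand, a control peak and a length of 5 kb or more, with no upper limit. Nothing is therefore read from the differences between the members and these genes in first covered base, peaks past the end or covered parts. Cct4 has no strand here, and its peak ran from 736 bp inside its low-coordinate end to 2682 bp beyond the other end.

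All 7 knockdown peaks outside Cct3 lay wholly inside a control peak. Seen from the control side, 5 of the 9 control peaks at CCT genes were overlapped by a knockdown peak, where 6.52% of the whole control list was. The selection used these peaks, so nothing is read from the count. Members' control peaks were mostly long. Of the 4218 control peaks of at least 6000 bp in the whole list, 14.2% were overlapped. The part of peak length in the overlap at members was not tested. The knockdown peaks were 1219 to 2349 bp long, and each was 9.15% to 19.4% as long as the control peak around it. Under a stricter rule, with 50% of both peaks shared, 0 of the 9 control peaks were overlapped.

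In 3 of the 5 genes with a known strand and a knockdown peak, that peak lay near the 3′ end. Their summits, given as percent of the gene's length from the start, were at 82.3% in Tcp1, 84.7% in Cct5 and 91.5% in Cct7. Cct2 had summits at 14.5%, 54.2% and 76.2%. In Cct3 they were at 16.0%, 22.4% and 50.8%, so its knockdown peaks lay in the first part of the gene up to its middle. Over the 7144 marked genes of 5 kb or more with a known strand, knockdown coverage was also higher toward the 3′ end. Their mean knockdown-covered share was 0.182% in part 1 of 10, 1.85% in part 8 and 1.48% in part 10. Peak positions were used in the selection, so nothing is read from where the members' peaks lay. The distance from the knockdown to the control summit was 639 bp in Tcp1, 1.05 kb in Cct7, 1.52 kb in Cct5 and 9.13 kb in Cct4. In Cct2, counted from the start of the gene, it was 523 bp, 4.59 kb and 7.42 kb for the 3 knockdown peaks.

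**Figure D3:**
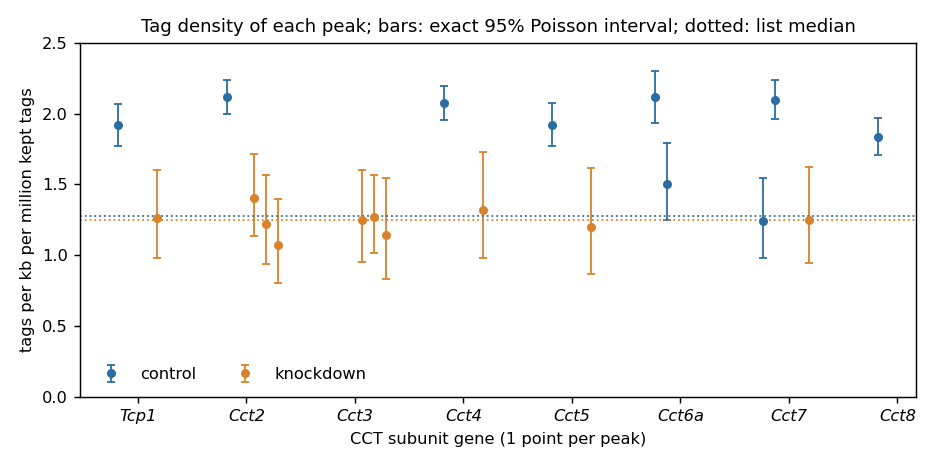
Each point is 1 peak, with its tags per kb per 1000000 kept tags and an exact 95% Poisson interval; control peaks are blue, knockdown peaks orange, and dotted lines give the median of each whole list. Most control peaks sit near 2 on this scale, while the knockdown peaks lie between 1.07 and 1.404.

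Most control peaks at CCT genes lay above the median density of their list, and knockdown peaks lay around that of theirs. On the scale of tags per kb of peak per 1000000 kept tags, the main control peak held 2.12 at Cct2 (95% Poisson interval 2.00 to 2.24), 2.11 at Cct6a (1.94 to 2.30), 2.10 at Cct7 (1.96 to 2.24) and 2.07 at Cct4 (1.95 to 2.20). Tcp1 and Cct5 both held 1.92, and Cct8 1.83 (1.71 to 1.97). These intervals overlap between neighbours in the order. Lower levels were found at the 3′ peak of Cct6a, 1.501 (1.25 to 1.79), and at the 5′ peak of Cct7, 1.24 (0.979 to 1.55). The median of the whole control list was 1.27, and 8 of the 9 peaks lay above the median density. The rule that chose the genes used the tags per kb of these peaks, so nothing is read from this count. The member control peaks also had a median length of 9444 bp, beside 2451 bp for the whole list.

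The 10 knockdown peaks held 1.07 to 1.404 on this scale, around the median of their own list, 1.25. The highest was the 3′ peak of Cct2, at 1.404 (1.14 to 1.71) from 97 tags, and the lowest its 5′ peak, at 1.07 (0.801 to 1.399) from 53 tags. All their intervals overlap. At the 5 genes with peaks in both lists, a knockdown peak held 0.505 to 0.663 times the depth-scaled density of the control peak around it. Such a ratio sets a short peak against the mean over a longer one, and both had to pass the caller, so it is no measure of the mark at 1 site.

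The caller score did not follow the tag density at the CCT genes. Cct2 had the most tags of all member peaks, 1190 over 15515 bp, but a score of 149.4, while Cct6a had 520 tags over 6789 bp and a score of 1394.9. From tags and score an implied background can be worked out, as the Poisson mean at which more tags than observed have the caller's p-value. Taken relative to the kept tags spread evenly over the effective genome, it was 3.12 at the Cct2 peak, 2.68 at Cct4 and 2.08 at the long Cct7 peak, and 1.02 to 1.33 at the other control peaks. For the 558 control peaks over 12 and up to 16 kb long it had a median of 1.81 (quartiles 1.59 and 2.13), so the values at Cct2 and Cct4 are above the upper quartile. At the member peaks in knockdown it was 0.862 to 1.07. The lowest value, at the 5′ peak of Cct2, is below an even spread of tags, so it may differ from the background that the caller used. The part of the background in the missing control peak of Cct3 was not tested. By score, the Cct2 and Cct4 peaks are not among the 3040 top-scoring control peaks, those of Tcp1, Cct5 and Cct8 are, and so is 1 peak each of Cct6a and Cct7.

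Most genes around the CCT genes were marked in control. Of 18 protein-coding genes that overlap a member or lie within 10 kb, 15 had a covered base in control (44.8% of all protein-coding genes) and 2 in knockdown (5.17% of all genes, and 10.4% of those marked in control). These 2 were Acat3, which shares 262 bp of the Tcp1 knockdown peak at the overlapping ends of both genes, and the F-box gene Fbxo41 behind Cct7 (3.02%), which has a knockdown peak of its own. In control, Acat3, Fbxo41 and Cmbl were covered only by the members' own peaks, which the selection used. The control count rests in part on them, so nothing is read from it. Several members start head to head with a neighbour. Mrpl18, a mitochondrial ribosomal protein gene that overlaps the start of Tcp1, was covered over 53.6%, Psph, a serine synthesis gene that overlaps that of Cct6a, over 46.3%, and Pradc1, which overlaps that of Cct7, over 16.5%, each with no knockdown peak. Tsacc lies 135 bp before Cct3 and Atpsckmt 269 bp before Cct5, and neither had a peak in either list. Frs2 before Cct2 was covered over 9.16% in control.

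Behind the ends, the deubiquitinase gene Usp16 overlaps Cct8 by 191 bp and was covered over 65.3% in control. It shares 1274 bp of the Cct8 peak, so that part of the signal cannot be assigned to 1 of the 2 genes. Likewise, 3100 bp of the Tcp1 control peak lie in Acat3, including the 1862 bp past the end of Tcp1. That part cannot be assigned to 1 gene either. The Cct5 peak reached 582 bp into Cmbl and the Cct7 peak 337 bp into Fbxo41, which were all the control-covered bases of those genes. Sumf2 behind Cct6a (74.7%), Glmp behind Cct3 (72.2%), Smyd5 near Cct7 (64.6%), Pnldc1 near Tcp1 (78.6%), Commd1 (19.8%) and Fam161a (11.9%) beside Cct4, and Tmem79 (6.35%) were covered in control alone. Lrrc10 and 2 non-coding genes, Gm10747 and B130034C11Rik, had no peak. Tcp1 and Cct6a each hold 2 annotated small nucleolar RNA genes, which guide RNA modification, and all 4 lay under control peaks. Snora20 inside Tcp1 also lay wholly under the knockdown peak.

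**Figure D4:**
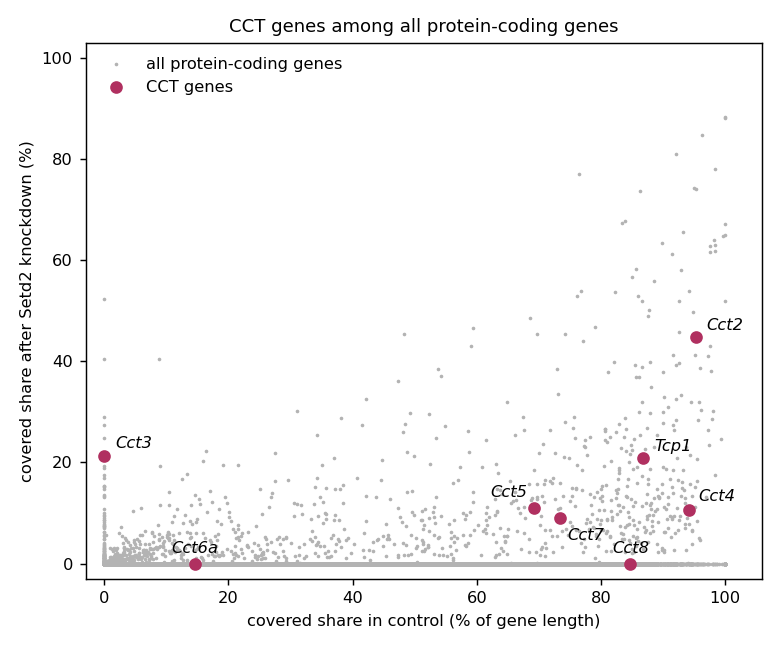
Each grey point is a protein-coding gene, placed by the percent of its length under control peaks (x axis) and under knockdown peaks (y axis); the 8 CCT genes are marked in red. Cct2 sits at 95.2% and 44.8%, and Cct3 on the y axis at 21.4%.

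By covered share Tcp1, Cct2, Cct4, Cct5 and Cct7 were above the median of genes with any coverage in both lists. In knockdown only Tcp1 and Cct2 of these 5 were above the 75th percentile of such genes, 13.2%. In control Cct3 had 0% and Cct6a 14.7%, and in knockdown Cct6a and Cct8 had 0%. The rule that chose the genes used these shares, so nothing is read from their level. The median of the 8 CCT genes was 79.1% in control and 10.8% in knockdown, and the median of all protein-coding genes was 0% in each. Among genes with any coverage the medians were 37.2% in control and 5.56% in knockdown. Summed over the 8 genes, 71.2 kb or 44.9% of their length was covered in control and 16.9 kb or 10.7% in knockdown, with 9.37% and 0.259% for all protein-coding genes. The long span of Cct6a weighs on the sums: without it they were 62.9% and 17.0%. A share of at least 50% in control was reached by 6 of the 8, against 17.0% of all genes, and a share of at least 10% in knockdown by 5, against 1.71%. The 6 were also covered over at least 60% in control (12.9% of all genes), and 5 of them had a knockdown peak. Of all 2815 genes covered to that extent, 15.3% had one.

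The genes most like Cct2 and Cct3 in their 2 covered shares were sought among protein-coding genes of 0.5 to 2 times their length. Genes with a Gm or Rik symbol and genes that overlap another protein-coding gene were left out. Nearest to Cct2 among 5542 genes were Eef1g (97.6% and 43.0%), a translation elongation factor gene, Eif4g2 (94.9% and 49.7%), a translation initiation gene, and Atp5b (97.8% and 38.1%), which encodes the catalytic subunit of mitochondrial ATP synthase. Their distances from Cct2 were 2.97, 4.97 and 7.14 percentage points. Nearest to Cct3 among 5963 genes, all with 0% in control, were Rest (15.4% in knockdown), a transcriptional repressor gene, Top2a (29.1%), a topoisomerase gene, and Atic (13.2%), a purine synthesis gene, at 6.02, 7.71 and 8.22 points. The likeness rests on 2 values a gene.

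**Figure D5:**
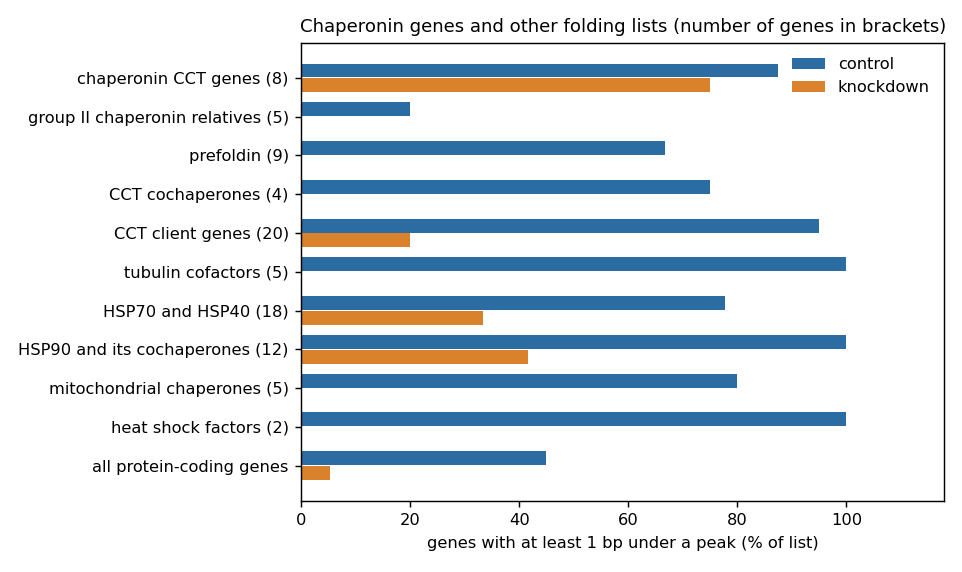
Bars give the percent of genes with at least 1 bp under a control peak (blue) or a knockdown peak (orange). They are shown for the CCT genes, 9 lists of genes related to folding and all protein-coding genes, with list sizes in brackets. The client list holds genes whose proteins CCT folds. Knockdown bars are seen for the CCT genes, the client, HSP70 and HSP90 lists and all genes, and the other 6 lists are at 0.

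The partners of CCT were mostly marked in control, where 44.8% of all protein-coding genes were. No knockdown peak was called at the 18 genes for prefoldin, cochaperones and tubulin cofactors (5.17% of all genes and 10.4% of those marked in control had one), and nothing is read from so few genes. Of 9 genes for prefoldin and its relatives, 6 were marked in control and 0 in knockdown, with Pdrg1 (73.7%) and Pfdn5 (53.1%) the most covered. The cochaperones that bind CCT had 3 of 4 and 0 of 4, led by Pdcl (79.5%), a phosducin-like gene, and Txndc9 (75.9%). Tubulin cofactors, which take tubulin on from CCT, had 5 of 5 and 0 of 5, with Tbcc at 78.4% and Tbcb at 76.2%. Of 5 other genes related to the CCT subunits, Cct6b included, 1 was marked, Mkks (9.17%), and the others, such as the ciliopathy gene Bbs10, had no peak. Median control coverage was 14.6% for prefoldin, 71.5% for the cochaperones and 16.9% for the tubulin cofactors.

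Of 20 genes whose proteins CCT folds, 19 were marked in control and 4 in knockdown, beside 44.8% and 5.17% of all genes. The beta-tubulin gene Tubb5 was covered over 76.8% and 54.0%, and the actin gene Actb over 59.4% and 46.6%. Ccne1, which encodes cyclin E, had 89.8% and 15.8%, and the mitotic kinase gene Plk1 91.9% and 0%.

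Other large chaperone families were marked as well. Of 18 HSP70 and HSP40 genes, 14 were marked in control and 6 in knockdown. Hspa8, the constitutive cytosolic HSP70, was covered over 97.0% and 0%, Hspa5, that of the endoplasmic reticulum, over 94.9% and 44.4%, and Hsph1 over 93.1% and 15.0%. HSP90 genes and their cochaperones had 12 of 12 and 5 of 12. The constitutive Hsp90ab1 was covered over 96.3% and 84.8% and Hsp90b1 of the endoplasmic reticulum over 94.4% and 31.9%, whereas the inducible Hsp90aa1 went from 100% to 0%. Mitochondrial chaperones had 4 of 5 and 0 of 5, with Hspd1, the HSP60 that is the mitochondrial counterpart of CCT, at 86.4% and Trap1 at 77.7%. The heat shock factor genes Hsf1 (35.7%) and Hsf2 (14.4%) had control peaks alone. Over the 9 lists together 66 of 80 genes had a control peak and 15 of these 66 (22.7%) a knockdown peak as well, where 44.8% of all genes were marked in control and 10.4% of those in knockdown too.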

How the data were processed

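The submitters' processing notes name FastQC 0.11.5, Bowtie 1.1.2 and the build mm10. The handling of multiply matching reads is not stated there. MACS 1.4.2 was run by the authors, per the file headers, at a p cutoff of 1e-05 on merged replicates against merged inputs, keeping 1 tag per position, with local background over 1000 and 10000 bp. The deposited tables give, for each peak, raw tag counts, a score (minus 10 times log10 of the p-value), a ratio (fold over background) and an FDR in percent. Score, fold and FDR are the authors' and only describe peaks of 1 list. Both deposited BED files contain the peaks with an FDR of 5% or less and repeat the fold.

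Covered shares, overlaps (at least 1 bp) and tag densities were computed with Python 3.11.15, numpy 2.4.6, pandas 2.3.3 and scipy 1.17.1, and the coverage code was tested on simulated data. Gene spans come from RefSeq and strands from the RefSeq start sequences, which lack Cct4. Members and lists were chosen with earlier results of these data known. Named genes are the 8 members, their neighbours within 10 kb, the 2 most covered genes of each list and condition, and the 3 genes nearest to Cct2 and to Cct3. Grpel1 and Grpel2 were not analysed here.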

Additional observations from a re-analysis of the deposited data

How the results depend on the processing

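No paired analysis was possible because the authors merged replicates 1 and 2 before peak calling, and for the same reason no replicate could be left out. With an FDR of 5% or less no value changed. With an FDR of 1% or less, 1 CCT gene had a knockdown peak and 0 had peaks in both lists, and the summed covered share was 40.6% in control and 0.804% in knockdown. The empirical FDR of the 10 knockdown peaks was 0.96% to 1.93%, so this filter leaves only the weakest Cct3 peak. In control it drops the main Cct6a peak (FDR 1.46%), which had the highest score of the members' control peaks (1394.9). With a caller score of 100 or more the counts were 2 and 1, the shares 43.8% and 2.95%, and 1 control peak was overlapped. With only the top-scoring control peaks, 3 genes had peaks in both lists and the control share was 27.3%. With 1 kb added on each side the shares were 44.5% and 9.70%. Leaving out Cct6a, chosen after seeing the data, gave 62.9% and 17.0%, and 15.7% and 100% for the first and last part of the genes. With an overlap of 50% each way 0 control peaks were overlapped. The median density of 1.92 in control and 1.25 in knockdown became 69.5 and 36.7 as raw tags per kb, and 1.63 and 0.9497 per 1000000 tags before duplicate removal. The authors' fold in its place had medians of 6.06 and 4.215. The midpoint rule and a minimum share of 10% kept each count within 1.5 times.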
